A study of Mus musculus with 3 samples.

Results

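Chemokines are small secreted proteins that direct the movement of leukocytes, and the 10 described here are ones that mainly draw monocytes, lymphocytes and related cells. They are Ccl2, Ccl7, Ccl11, Ccl20, Ccl21a, Cxcl9, Cxcl10, Cxcl12, Cxcl14 and Cxcl16. They were taken by gene symbol from the 31053 genes of the table, where 11 gene identifiers carry these 10 symbols because 2 identifiers are named Ccl21a. The second Ccl21a identifier had 0 UMIs in all cells. No measured value entered the rule, but the members were chosen with earlier results of these data known.

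Cells of the distal colon and anus were sequenced one by one from C57Bl/6 mice, bought at 6 weeks of age. The day 0 library came from 5 untreated mice. The day 7 and day 42 libraries each came from 5 mice that drank water with 3% dextran sulfate sodium (DSS), a compound that injures the colonic lining, for 6 days; day 7 is labelled as severe colitis. Tissue of the 5 mice of a day was pooled, digested in trypsin and cleared of dead cells with Annexin V, so each day is 1 library with no replicate. No test between days was possible, and a difference between days cannot be told apart from one between pools of mice, dissections or libraries.

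A chemokine acts through a G protein-coupled receptor on the cell it attracts, and atypical receptors bind chemokines and remove or carry them without that signal. Ccl2 and Ccl7 bind Ccr2 and draw monocytes out of blood, Ccl11 binds Ccr3 and draws eosinophils, and Ccl20 binds Ccr6 on B cells, some T cells and dendritic cells. Ccl21a binds Ccr7 and guides dendritic cells and naive T cells into lymphatic vessels and lymph nodes. Cxcl9 and Cxcl10 are induced by interferon and bind Cxcr3 on activated T cells, Cxcl12 binds Cxcr4 and the atypical receptor Ackr3, Cxcl16 is made as a membrane protein and binds Cxcr6, and Cxcl14 is abundant in healthy epithelium and skin.

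In GRCm38, Ccl2 (chr11:82035571-82037453), Ccl7 (chr11:82045712-82047525) and Ccl11 (chr11:82057823-82062955) stand side by side on the plus strand of chromosome 11, and Cxcl16 (chr11:70453983-70459984, minus strand) is on the same chromosome. Cxcl9 (chr5:92321347-92328079) and Cxcl10 (chr5:92346638-92348889) lie close together on the minus strand of chromosome 5. The others are Ccl20 (chr1:83116766-83119167, plus), Ccl21a (chr4:42772860-42773993, minus), Cxcl12 (chr6:117168535-117181367, plus) and Cxcl14 (chr13:56288643-56296551, minus). All 10 are protein coding.

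The RefSeq promoter table (GRCm38.p6) held 6 of the 10 members, Ccl20, Ccl21a, Cxcl9, Cxcl10, Cxcl12 and Cxcl14. The 250 bases before the start are shown for Cxcl9, Cxcl10 and Ccl20. Summed levels of Cxcl9 and Cxcl10 in endothelial cells were higher on day 7 than before DSS. Ccl20 UMIs on day 7 came mostly from keratinocytes. Capitals mark matches, on either strand, to kappaB (GGG and CC with any 5 bases between them, a pattern of NF-kappaB sites) and ISRE (GAAA and GAAA with any 2 bases between them, a pattern of interferon-stimulated response elements), and overlapping matches run together.
Cxcl9 (chr5:92328080-92328329, minus strand): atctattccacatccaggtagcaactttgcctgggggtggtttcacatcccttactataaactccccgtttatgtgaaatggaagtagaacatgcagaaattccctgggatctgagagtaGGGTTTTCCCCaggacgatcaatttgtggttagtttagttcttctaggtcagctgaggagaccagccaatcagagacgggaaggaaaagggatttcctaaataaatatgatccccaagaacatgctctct
Cxcl10 (chr5:92348890-92349139, minus strand): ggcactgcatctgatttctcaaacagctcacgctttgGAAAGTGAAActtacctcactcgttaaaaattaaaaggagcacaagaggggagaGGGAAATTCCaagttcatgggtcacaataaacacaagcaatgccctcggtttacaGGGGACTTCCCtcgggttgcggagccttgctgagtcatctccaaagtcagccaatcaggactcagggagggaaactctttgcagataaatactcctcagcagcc
Ccl20 (chr1:83116516-83116765, plus strand): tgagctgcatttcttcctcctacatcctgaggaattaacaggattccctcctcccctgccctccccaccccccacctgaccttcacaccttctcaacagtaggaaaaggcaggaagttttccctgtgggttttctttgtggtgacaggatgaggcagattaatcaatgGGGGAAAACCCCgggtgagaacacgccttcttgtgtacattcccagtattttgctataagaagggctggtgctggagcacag
Counted from the start, Cxcl10 had an ISRE match from -213 to -204 and kappaB matches that begin at -159, -104 and -103. The kappaB matches of Cxcl9 begin at -130 and -129, and those of Ccl20 at -82, -81 and -80. Neither had an ISRE match in this window. Over 32851 promoter windows of the same length, 45.8% held a kappaB match and 2.98% an ISRE match. Among the 6 members in the table, 4 had a kappaB match and 2 an ISRE match, the other being Cxcl14. A match of letters is not a site shown to be bound.

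The libraries held 11037, 14376 and 11667 cells on days 0, 7 and 42, with 89241138, 151886649 and 72258639 unique molecular identifiers (UMIs, each 1 captured molecule), and a median of 5995, 6217.5 and 5708 UMIs per cell. The authors gave each cell 1 of 29 cluster numbers and 1 of 14 type names, and every marker on the lists for fibroblasts, keratinocytes, colonocytes, macrophages and blood and lymphatic endothelium was detected in the type of that name on each day. The share of cells with over 20% mitochondrial UMIs was 32.1%, 14.9% and 12.97%, and 139 cell barcodes occurred in more than 1 library. Fibroblasts were 13.01%, 2.20% and 1.90% of cells and keratinocytes 30.04%, 62.8% and 68.3%. A level is given in CPM, the gene's UMIs per 1e6 UMIs summed over the cells of a type in a library, with an exact Poisson 95% interval in parentheses. Shares of cells have exact Clopper-Pearson 95% intervals where printed, and all intervals cover counting error only. Types under 50 cells in a library were not compared, which leaves out macrophages on day 42 (44 cells) and neutrophils on day 0 (5 cells). Fewer cells of a type and less RNA per cell cannot be told apart in the library totals.

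The type that held the most UMIs of a chemokine was the same on all 3 days for 2 of the 10 members, Ccl21a from lymphatics and Cxcl14 from keratinocytes. On day 0, fibroblasts held the most for 5 members, colonocytes for 3, and keratinocytes and lymphatics for 1 each. On day 7 it was fibroblasts for 4, keratinocytes for 3, endothelial cells for 2 and lymphatics for 1. On day 42, keratinocytes held the most for 8 members, and keratinocytes then also held 80.4% of all UMIs in the library. By CPM within a type, which does not count how many cells were captured, 3 members had the same highest type on all days: Ccl7 and Ccl11 in fibroblasts and Ccl21a in lymphatics. Without the 10 cells richest in the gene, the highest type by CPM was the same in 19 of 30 cases of a member on a day, and that of Ccl11 on day 42 became keratinocytes.

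**Figure D1:**
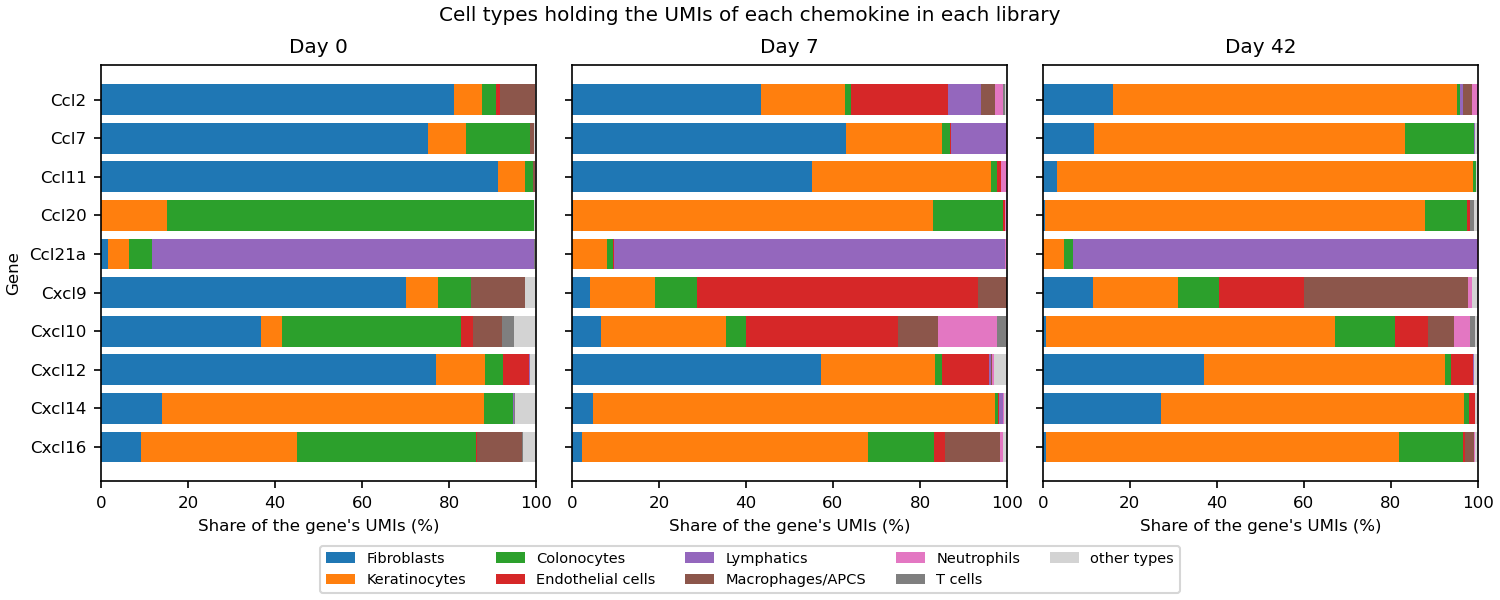
Share of each chemokine's UMIs (percent) held by each annotated cell type, 1 panel per library and 1 bar per gene. Ccl2, Ccl7 and Ccl11 lie mostly in fibroblasts on day 0 (81%, 75.2% and 91.2%) and mostly in keratinocytes on day 42 (79.2%, 71.7% and 95.7%), while Ccl21a lies in lymphatics on each day.

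**Figure D2:**
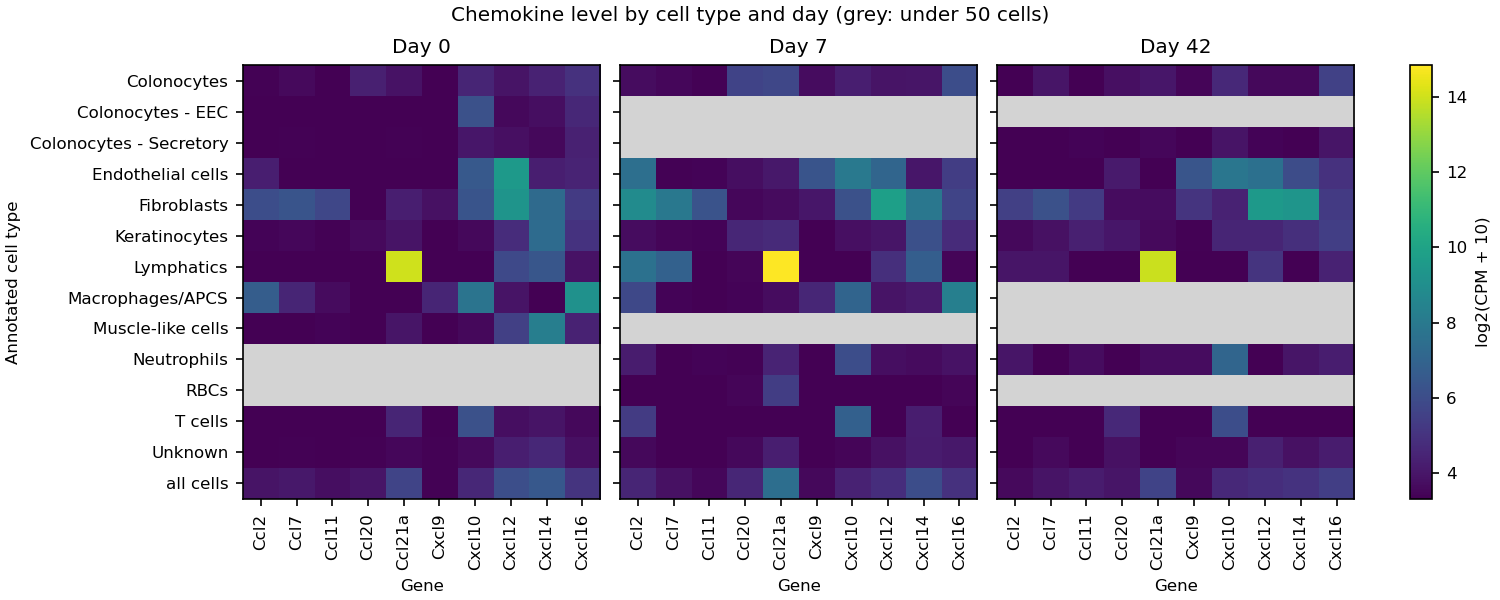
Level of each chemokine (x axis) in each annotated cell type and in all cells (y axis), as log2(CPM + 10), 1 panel per library; grey marks types under 50 cells. Ccl21a in lymphatics is the highest level on each day, and Cxcl12 in fibroblasts is high on all days.

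Of the Ccr2 ligands, Ccl2 was higher in fibroblasts on day 7 than on days 0 and 42. Its fibroblast level was 56.8 CPM (51.1 to 62.8) on day 0, 458 CPM (427 to 490.1) on day 7 and 35.02 CPM (22.4 to 52.1) on day 42. The day 7 interval stood above the other 2, with a day 7 to day 0 ratio of 8.07 (7.13 to 9.14), or 2.81 on the log2 scale with 10 CPM added to both levels. UMIs of Ccl2 were found in 5.43% of 1436 fibroblasts, 28.5% of 316 and 4.50% of 222. In colonocytes, an epithelial type given as background, it was 0.240%, 2.27% and 0.0672% of cells. Colonocytes had a median of 9679, 4027 and 5879 UMIs on the 3 days and fibroblasts 4366, 5015 and 2645.5. With each fibroblast thinned to 1000 UMIs, which left out 125, 33 and 19 shallower cells, the shares were 2.52%, 16.6% and 3.45%, so day 7 stayed highest and the order of days 0 and 42 turned. The 10 richest fibroblasts held 52.8% of the fibroblast UMIs on day 0, 48.1% on day 7 and 100% on day 42, when 10 cells had any.

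Ccl7, the neighbour of Ccl2, was also higher in fibroblasts on day 7. In fibroblasts it was at 69.5 CPM (63.2 to 76.2), 231 CPM (209.7 to 254) and 62.7 CPM (45.4 to 84.5) on days 0, 7 and 42, and the day 7 interval stood above the others, which overlap. The day 7 to day 0 ratio was 3.33 (2.91 to 3.81), and UMIs were found in 7.80%, 23.7% and 8.11% of fibroblasts, or 3.43%, 12.4% and 4.93% after thinning, against 0.907%, 0.394% and 0.940% of colonocytes at the depths given for Ccl2. Some fibroblasts held both genes. On day 0, 30 fibroblasts had both, 38.5% of those with Ccl2 and 26.8% of those with Ccl7, and on day 7 49 had both, 54.4% and 65.3%. On day 42, 4 of 222 had both. Without the 10 fibroblasts richest in the gene in each library, the day 7 to day 0 log2 ratios were 2.80 for Ccl2 and 1.34 for Ccl7.

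Keratinocytes held the most UMIs on day 42, 118 of 149 for Ccl2 and 263 of 367 for Ccl7, beside 80.4% of all UMIs. On days 0, 7 and 42 Ccl2 was in 0.302%, 1.85% and 0.703% of keratinocytes, or 0.0914%, 0.409% and 0.203% after thinning. Ccl7 was in 0.211%, 0.675% and 1.36%, or 0.122%, 0.210% and 0.432% after thinning. The colonocyte shares are given above. In endothelial cells and lymphatics, both genes rested on few cells. Endothelial Ccl2 was 4 UMIs (9.49 CPM) on day 0, 428 UMIs (174 CPM) on day 7 and 0 UMIs on day 42, where the exact interval reaches 9.91 CPM. Of the day 7 UMIs, 98.1% lay in 10 cells and 164 in 1 cell, and without the 10 richest cells the day 7 to day 0 log2 ratio was 0.43 in place of 3.24. In lymphatics of day 7, 1 cell held 130 of 147 UMIs of Ccl2, and 1 cell held 74 of 85 of Ccl7. Among macrophages and antigen-presenting cells Ccl2 was at 94.02 CPM (66.2 to 129.6) on day 0, above the fibroblasts of that day, and at 46.7 CPM (35.8 to 59.9) on day 7. The summed level of 5 macrophage markers in that type was 4350.2 CPM on day 0 and 1224 CPM on day 7, and its part in the lower Ccl2 was not tested. The same holds for every other gene whose levels in that type are given for these days.

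Ccl11, which draws eosinophils, was also highest per UMI in fibroblasts, at 44.2 CPM (39.3 to 49.6), 66.7 CPM (55.4 to 79.6) and 29.2 CPM (17.8 to 45.1) on days 0, 7 and 42. The day 7 interval lay above the other 2, and with 10 CPM added no pair of days was past 2-fold. In keratinocytes Ccl11 was at 0.588 CPM (0.359 to 0.909), 0.709 CPM (0.571 to 0.871) and 9.86 CPM (9.07 to 10.7). The day 42 level, above both earlier ones, came from 573 UMIs in 2.67% of 7970 keratinocytes, against 0.452% and 0.786% of keratinocytes on days 0 and 7. Colonocytes of day 42 had a UMI in 0.201% of cells, at a median depth of 5879 against 6542 UMIs in keratinocytes. Clusters differed in size between days: cluster 1 was 13.4%, 6.23% and 38.2% of keratinocytes, cluster 3 8.11%, 21.9% and 12.2% and cluster 5 2.62%, 1.79% and 27.01%. Within cluster 1 Ccl11 was at 0 UMIs, 0.595 CPM (0.162 to 1.52) and 14.8 CPM (13.1 to 16.5), and within cluster 3 at 0 UMIs, 0.107 CPM (0.0394 to 0.234) and 15.4 CPM (12.98 to 18.1). In cluster 5 the day 42 level was 5.33 CPM (4.33 to 6.48). At least 5 UMIs of fibroblast markers were found in 1.41% of the keratinocytes with Ccl11 on day 42 and in 1.24% of those without, while the summed level of these markers was 70.6 CPM in the former and 37.4 CPM in the latter. Their part in the Ccl11 level was not tested. Levels over all keratinocytes were under the 10 CPM that a comparison by fold required.

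Cxcl12 and Cxcl14 were detected in fibroblasts on each day. Cxcl12, the ligand of Cxcr4, was at 613 CPM (594 to 632) in fibroblasts on day 0, 883 CPM (841 to 927) on day 7 and 729.6 CPM (667 to 796) on day 42. Fibroblast Cxcl12 was thus within 2-fold between any 2 days. UMIs were found in 68.3%, 54.4% and 55.4% of fibroblasts, against 2.61%, 2.27% and 1.01% of colonocytes, and in 39.4%, 39.9% and 36.5% of fibroblasts after thinning.

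In endothelial cells Cxcl12 was lower after DSS. Its level was 731 CPM (651 to 817) in 100 endothelial cells on day 0, 123 CPM (109.8 to 138) in 312 cells on day 7 and 180.0 CPM (139 to 229) in 122 cells on day 42. The day 0 interval was above both later ones, and the log2 ratio to day 0 was -2.47 on day 7 and -1.96 on day 42. Without the 10 richest cells these ratios were -3.23 and -3.35. The share of endothelial cells with a UMI was 65%, 18.6% and 18.9%, and 44.8%, 6.69% and 9.62% after thinning. Summed keratinocyte markers (6 genes) in endothelial cells were 648, 1901 and 4117 CPM on the 3 days, summed fibroblast markers 109, 103 and 435 CPM and summed blood endothelial markers 4073, 4322 and 3822 CPM. Their part in the result was not tested.

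Cxcl14 in fibroblasts was higher in each later library, at 149.9 CPM (141 to 159.6), 224 CPM (203 to 247) and 633 CPM (575 to 696). No interval overlapped another, and the log2 ratio of day 42 was 2.01 to day 0 and 1.46 to day 7. UMIs were found in 19.01%, 29.1% and 43.7% of fibroblasts, against 2.85%, 3.05% and 0.739% of colonocytes, and in 8.39%, 14.1% and 28.1% of fibroblasts after thinning. Without the 10 richest cells the log2 ratio of day 42 was 1.82 to day 0 and 1.82 to day 7. Summed keratinocyte markers in fibroblasts were 1231, 1905 and 4617 CPM on the 3 days. On day 42, keratinocyte markers reached 5 UMIs in 23.7% of fibroblasts with Cxcl14 and 12.8% of those without, and the former held 26.04% of its fibroblast UMIs. The level of Cxcl14 that day was 19.2 CPM over all keratinocytes and 3219 CPM in their cluster 17. The part of keratinocyte RNA in the fibroblast level was not tested.

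**Figure D3:**
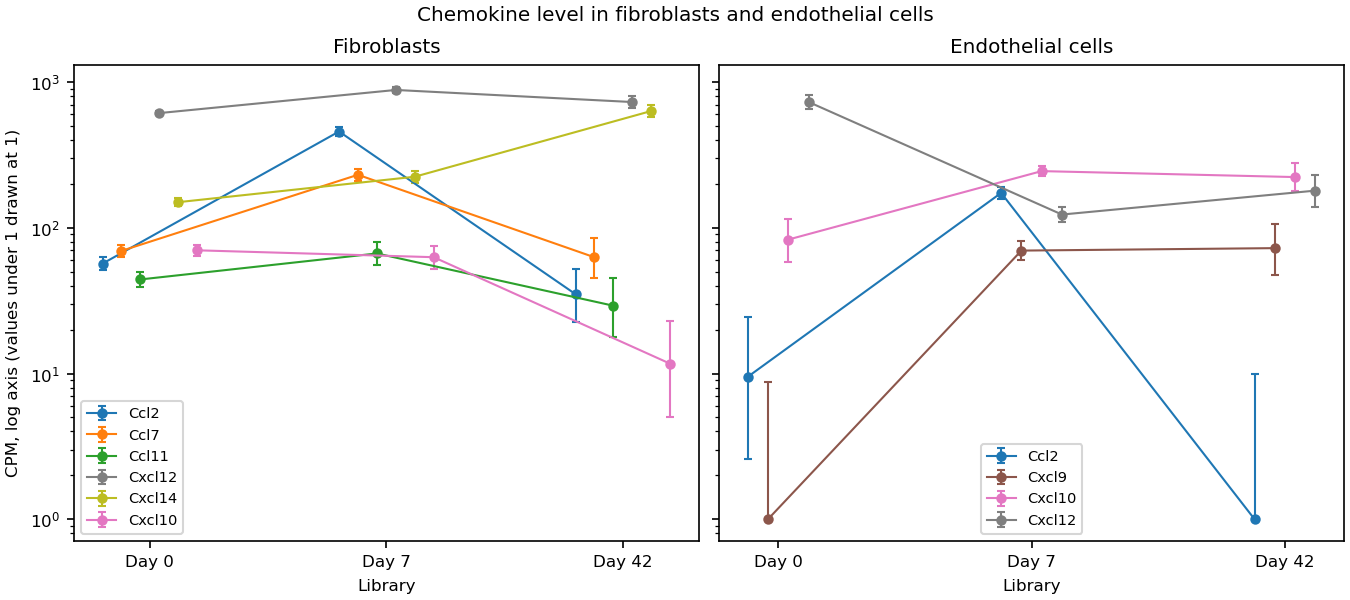
Level (y axis, CPM on a log axis, values under 1 drawn at 1) of 6 chemokines in fibroblasts and 4 in endothelial cells, by library (x axis). Points are the summed levels of 1 library and bars are exact Poisson 95% intervals; Ccl2 and Ccl7 in fibroblasts are highest on day 7, and endothelial Cxcl12 is 731 CPM on day 0 and 123 CPM on day 7.

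Over all keratinocytes Cxcl14 went the other way, at 154 CPM (149.6 to 158) on day 0, 60.4 CPM (59.03 to 61.7) on day 7 and 19.2 CPM (18.1 to 20.4) on day 42. Most of it lay in cluster 17, which held 3630 of 5225, 6299 of 7746 and 727 of 1117 keratinocyte UMIs. Within cluster 17 the level was 3327 CPM (3219 to 3437), 2849 CPM (2779 to 2920.4) and 3219 CPM (2989 to 3462), with a UMI in 89.5%, 88.1% and 87.3% of its cells. The cluster made up 4.89% (4.18 to 5.67) of keratinocytes on day 0, 2.61% (2.29 to 2.96) on day 7 and 0.790% (0.608 to 1.01) on day 42. Its own level was thus within 2-fold across days, while its share of keratinocytes was lower in each later library. Clusters 8 and 9 held 113 and 92.3 CPM on day 0, 44.6 and 7.06 CPM on day 7, and 68.9 and 33.1 CPM on day 42. With the same weight for each keratinocyte cluster, the log2 ratio of day 42 was -0.14 to day 0 and 0.16 to day 7, in place of -2.49 and -1.27. Muscle-like cells held 291 CPM (259 to 325) on day 0, the highest level among the types of at least 50 cells that day.

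**Figure D4:**
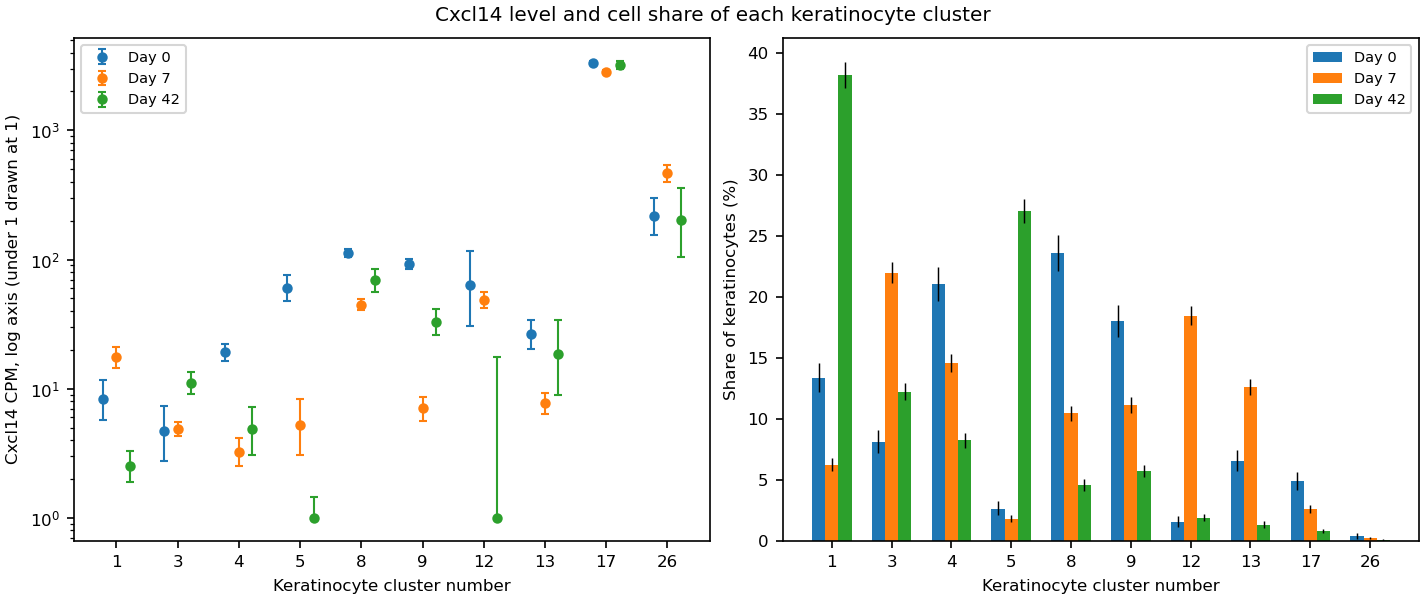
Left, Cxcl14 level (CPM on a log axis, values under 1 drawn at 1, exact Poisson 95% intervals) in each keratinocyte cluster by library; right, the share of keratinocytes in each cluster (percent, Clopper-Pearson 95% intervals). Cluster 17 has a level between 2849 and 3327 CPM in the 3 libraries.

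The summed levels of the interferon-induced pair Cxcl9 and Cxcl10 were higher in endothelial cells after DSS, on day 42 resting on few cells. Cxcl9 had 0 UMIs in endothelial cells on day 0, where the exact interval reaches 8.75 CPM, and was at 69.8 CPM (59.7 to 80.99) on day 7 and 72.5 CPM (47.8 to 106) on day 42. By the lower limits of the exact intervals of their ratios to day 0, these are at least 7.89-fold and 7.73-fold higher, and they are 9.80 and 10.2 times a floor of 3 UMIs in the day 0 library (7.12 CPM). They rest on 19 of 312 cells on day 7 and 3 of 122 on day 42, and 93.02% of the day 7 UMIs lay in 10 cells. Without the 10 richest cells the day 7 to day 0 log2 ratio of Cxcl9 was 0.59 in place of 3.00. After thinning, Cxcl9 was in 0% (upper limit 3.77%), 2.01% and 2.88% of endothelial cells on days 0, 7 and 42. The keratinocyte markers given beside Cxcl12 (648, 1901 and 4117 CPM in endothelial cells) moved with Cxcl9 and Cxcl10 too, and their part was not tested. On day 7 they reached 5 UMIs in 42.1% of endothelial cells with Cxcl9 and 31.1% of those without, and for Cxcl10 in 44.2% and 29.2%.

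Cxcl10 was at 83.02 CPM (57.8 to 115), 245 CPM (226 to 265) and 223 CPM (178 to 276) in endothelial cells, a log2 ratio to day 0 of 1.45 on day 7 and 1.32 on day 42. Both later intervals were above day 0. UMIs of Cxcl10 were in 4, 52 and 4 endothelial cells (4%, 16.7% and 3.28%), and in 0 of 190 lymphatics on day 7, where the exact interval reaches 4.68 CPM. Without the 10 richest cells the endothelial log2 ratio of day 7 to day 0 was 3.48, with all 4 day 0 cells that had a UMI left out. On day 42, 74 of the 83 endothelial UMIs were in 1 cell. After thinning, the shares of endothelial cells were 2.08%, 9.03% and 1.92%, so by share of cells day 42 was not above day 0. Of the 19 endothelial cells with Cxcl9 on day 7, 10 also had Cxcl10.

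Elsewhere Cxcl10 was spread over many types. In fibroblasts it was at 70.1 CPM (63.8 to 76.8), 62.8 CPM (51.9 to 75.4) and 11.7 CPM (5.04 to 23), with 8 UMIs in 2 cells on day 42. Macrophages and antigen-presenting cells held 206 CPM (163 to 256) on day 0 and 121 CPM (103 to 141) on day 7, and neutrophils 55.5 CPM (48.6 to 63.1) on day 7 and 125 CPM (90.2 to 169) on day 42. Neither of these pairs of intervals overlapped, but without the 10 richest cells the neutrophil log2 ratio of day 42 to day 7 was -0.67 in place of 1.05. The keratinocyte level on day 42, 12.6 CPM (11.7 to 13.5), came to 80.1% from 10 cells, 1 of which held 201 UMIs. Fibroblasts held 28, 11 and 16 UMIs of Cxcl9 on the 3 days, and 15 of the last were in 1 cell. The main source of Cxcl9 on day 42 was macrophages, with 52 UMIs of which 43 were in 1 cell.

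Ccl20 and Cxcl16 were found mainly in epithelium. Ccl20, the Ccr6 ligand, was held by colonocytes to 84.4% on day 0 and by keratinocytes to 82.7% on day 7 and 87.4% on day 42. Keratinocytes held 84.5% and 80.4% of all UMIs on these days, so their shares of Ccl20 were close to their shares of the library. In keratinocytes it was at 2.21 CPM (1.74 to 2.77), 13.4 CPM (12.8 to 14.1) and 6.09 CPM (5.47 to 6.76), with a UMI in 0.694%, 2.73% and 1.43% of cells, against 0%, 0.949% and 0.901% of fibroblasts. Keratinocytes had a median of 9168, 11481 and 6542 UMIs and fibroblasts 4366, 5015 and 2645.5, and after thinning the shares were 0.213%, 0.712% and 0.419% of keratinocytes and 0%, 0% and 0.493% of fibroblasts. The exact binomial intervals of the thinned fibroblast shares reach 0.281%, 1.30% and 2.71%, above the thinned keratinocyte share on each day. The thinned keratinocyte shares thus cannot be told apart from those of fibroblasts. On day 7 the thinned keratinocyte share, 0.712% (0.545% to 0.914%), stood above that of neutrophils, 0.141% (0.0170% to 0.507%). It also stood above that of cells named Unknown, 0% (upper limit 0.338%). On days 0 and 42 the thinned keratinocyte interval overlapped that of Unknown cells. No interval of the keratinocyte CPM overlapped another, and with 10 CPM added no pair of days was past 2-fold. Keratinocyte cluster 3 held 1292 of the 1725 keratinocyte UMIs of day 7, at 23.1 CPM (21.9 to 24.4). Colonocytes held 10.5 CPM (9.49 to 11.5), 39.3 CPM (35.2 to 43.7) and 3.94 CPM (2.80 to 5.38), with a UMI in 3.60%, 2.96% and 1.81% of cells, or 0.593%, 1.02% and 0.292% after thinning, which turns the order of days 0 and 7. Cluster 7, which held 399 of 417 colonocyte UMIs on day 0, was 48.3%, 3.25% and 27.7% of colonocytes on the 3 days. Of the colonocyte UMIs of day 7, 90.8% were in 10 cells, and without the 10 richest cells the log2 ratio to day 0 was -0.20 in place of 1.27.

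Cxcl16, the membrane-bound ligand of Cxcr6, had UMIs in 5072 of the 37080 cells, more than any other member. Its highest level on days 0 and 7 was in macrophages and antigen-presenting cells, at 554 CPM (483 to 633) on day 0 and 305 CPM (276 to 336) on day 7, with a UMI in 54.9% and 45.3% of them. In T cells 1, 0 and 0 UMIs were counted on the 3 days, at median depths of 2064, 2260 and 1393 against 4173 and 4913 UMIs in macrophages, and the exact interval of the 0 UMIs on day 7 reaches 11.1 CPM. In colonocytes Cxcl16 was at 21.5 CPM (20.1 to 22.97), 56.4 CPM (51.5 to 61.7) and 36.1 CPM (32.5 to 40.1), and in keratinocytes at 21.97 CPM (20.4 to 23.6), 16.4 CPM (15.7 to 17.1) and 33.9 CPM (32.4 to 35.4). The colonocyte level of day 7 was above both other days, by a log2 ratio of 1.08 over day 0, while the class lay in different clusters by day. UMIs were in 17.1%, 26.5% and 18.2% of colonocytes. After thinning the shares were 2.75%, 5.09% and 5.69%, so day 7 was then not above day 42. Cluster 2 was 51.6%, 69.3% and 71.99% of colonocytes on the 3 days, cluster 7 48.3%, 3.25% and 27.7% and cluster 22 0.107%, 27.5% and 0.336%. Within cluster 2 Cxcl16 was at 28.1 CPM (25.3 to 31.2), 64.6 CPM (58.7 to 70.9) and 56.9 CPM (50.5 to 63.8), where the intervals of days 7 and 42 overlap. Its UMIs were spread over many cells: the 10 richest keratinocytes held 7.90%, 5.18% and 2.54% of the keratinocyte UMIs.

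Ccl21a had the most UMIs of any member and lay mostly in a single type. In lymphatics it was at 16189 CPM (15642 to 16750) in 63 cells on day 0, 29279 CPM (28902 to 29659) in 190 cells on day 7 and 15627 CPM (15045 to 16226) in 84 cells on day 42. The day 7 level stood above the other 2, which overlap, and the day 7 to day 0 difference was under 2-fold. UMIs were in 85.7%, 96.3% and 80.95% of lymphatics and in 0.457%, 0% and 0% of T cells, at median depths of 2689, 3261.5 and 1735.5 against 2064, 2260 and 1393 UMIs. Lymphatics held 87.9%, 90% and 92.97% of all Ccl21a UMIs. Of the 50-base stretches of Ccl21a, 30.8% are also in Ccl21b, for which 0 UMIs were counted, and Ccl21c had 4, so counts given to Ccl21a are uncertain among these copies.

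Outside lymphatics part of the Ccl21a UMIs lay in cells with lymphatic markers. Keratinocytes held 2054 UMIs of it on day 7, and 49.8% of them were in cells with at least 5 UMIs of lymphatic endothelial markers. Such cells were 2.81% of the keratinocytes with Ccl21a and 0.0118% of those without. In colonocytes of day 7, 342 of 378 UMIs were in 1 cell.

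Counted over cell types, 11 of 36 member and type pairs that could be compared were past 2-fold higher on day 7 than on day 0 and 5 were lower. Over all genes in the same 8 types, 4.19% of pairs were higher and 4.07% lower. Day 42 against day 0 gave 6 higher and 5 lower of 31 pairs, beside 4.28% and 3.49% over all genes. Day 42 against day 7 gave 5 higher and 12 lower of 36 pairs, beside 3.6% and 3.59%. The members' shares were above these, and 13 of the 44 calls stayed past 2-fold without the 10 cells richest in the gene. The members were chosen with earlier results of these data known, so no conclusion is drawn from this excess. The same holds for the receptors and other chemokines counted below. The 3 comparisons share libraries.

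The receptors of these chemokines lay mostly on leukocytes. Ccr2, the receptor of Ccl2 and Ccl7, was at 445 CPM (381 to 516) in macrophages and antigen-presenting cells on day 0 and 489 CPM (452 to 528) on day 7, and at 235, 166 and 281 CPM in T cells on the 3 days. Cxcr6, the receptor of Cxcl16, was at 304, 262 and 441 CPM in T cells. Cxcr4, the receptor of Cxcl12, was at 226 CPM (182 to 278) in macrophages on day 0 and 133 CPM (115 to 155) on day 7, and in neutrophils at 60.9 CPM (53.7 to 68.9) on day 7 and 369 CPM (307 to 440.4) on day 42. In T cells Cxcr4 was at 118, 99.5 and 40.1 CPM on the 3 days, with 8 UMIs on day 42. Ccr7, the receptor of Ccl21a, was at 178 CPM in macrophages and antigen-presenting cells on day 0 and 103 CPM on day 7. The receptors of 4 members were low in the types compared. These left out B cells (5, 12 and 10 cells on the 3 days), and no type was named eosinophils. In T cells, Ccr3, the receptor of Ccl11, was at 3.62, 21.1 and 15.05 CPM, Ccr6, the receptor of Ccl20, at 23.5, 6.03 and 20.1 CPM, and Cxcr3, the receptor of Cxcl9 and Cxcl10, at 23.5, 18.1 and 40.1 CPM. The Ccr3 values rest on 2, 7 and 3 UMIs. Mast cell markers in the T cell type, given below beside Ccl4, were also highest on day 7, and their part was not tested.

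Among atypical receptors, Ackr1, which binds many inflammatory chemokines on venules, was at 135 CPM (102 to 175) in endothelial cells on day 0, 807 CPM (772 to 844) on day 7 and 862 CPM (770.4 to 962) on day 42. Both later intervals were above day 0, in the type where Cxcl12 was lower and the summed levels of Cxcl9 and Cxcl10 were higher. On day 42 the levels of Cxcl9 and Cxcl10 rested on few cells. Ackr2 was at 166, 299.6 and 92.2 CPM in lymphatics. Ackr3, which takes up Cxcl12, was at 411, 344 and 127 CPM in lymphatics and 168, 150.3 and 117 CPM in fibroblasts. In endothelial cells Ackr3 was at 128, 61.2 and 43.0 CPM. Of 23 receptor and type pairs compared between days 7 and 0, 5 were past 2-fold higher and 2 lower, beside 4.19% and 4.07% of pairs over all genes. The counts were 1 and 4 of 17 for day 42 against day 0 (4.28% and 3.49% over all genes), and 1 and 6 of 20 for day 42 against day 7 (3.6% and 3.59%). The counts of 1 are near what these shares give.

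**Figure D5:**
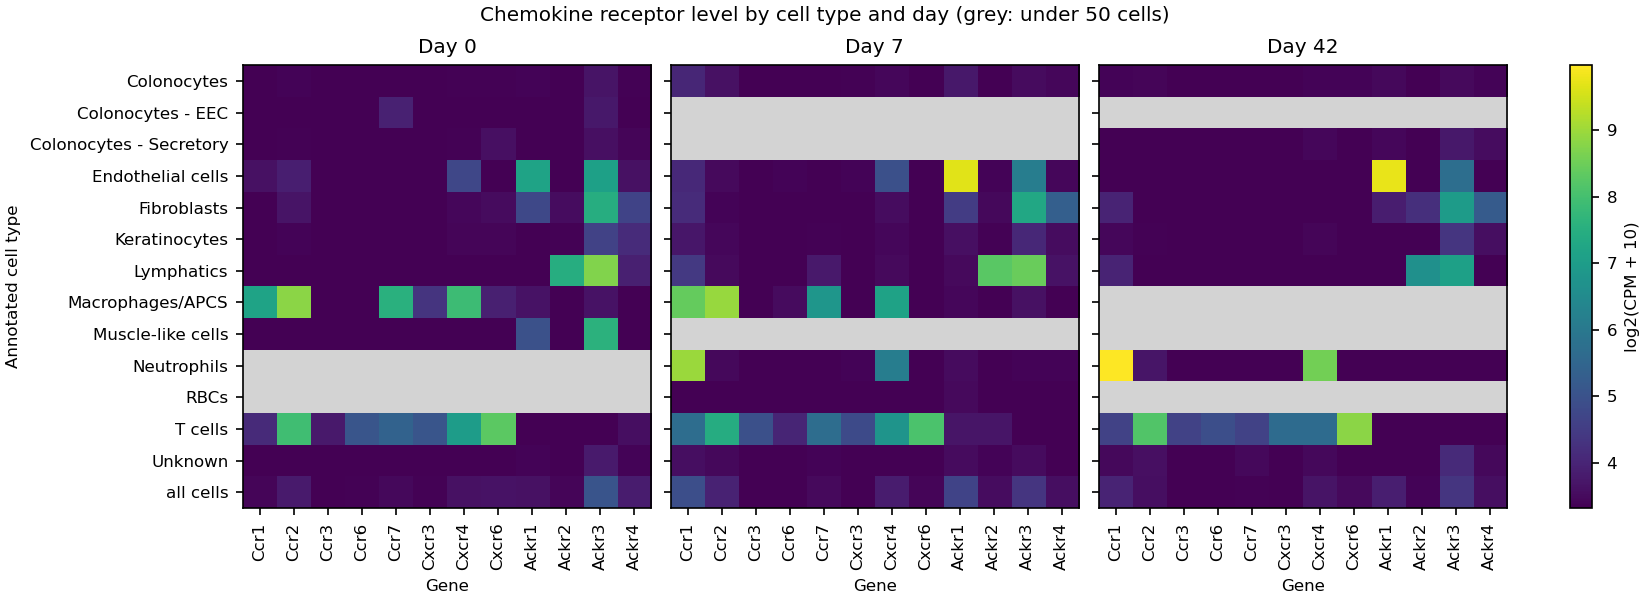
Level of 12 chemokine receptors (x axis) in each annotated cell type and in all cells (y axis), as log2(CPM + 10), 1 panel per library; grey marks types under 50 cells. Ccr2 is high in macrophages and T cells, Ccr1 in macrophages and neutrophils, Cxcr6 in T cells and Ackr1 in endothelial cells, while Ccr3, Ccr6 and Cxcr3 reach at most 40.1 CPM in any type of 50 or more cells.

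Of the 18 other chemokines examined, 37 gene and type pairs were compared between days 7 and 0, of which 13 were past 2-fold higher and 9 lower, beside 4.19% and 4.07% over all genes. For day 42 against day 0 the counts were 5 and 5 of 29 (4.28% and 3.49%). For day 42 against day 7 they were 1 and 12 of 27 (3.6% and 3.59%), so the count of higher pairs is at the share over all genes. In fibroblasts, Cxcl13, a B cell attractant, was also highest on day 7, at 55.4, 538 and 42.3 CPM. Ccl17 and Ccl22, ligands of Ccr4 that mature dendritic cells make, were at 1192 and 305 CPM in macrophages and antigen-presenting cells on day 0 and at 14.3 and 24.1 CPM on day 7, when the macrophage marker sum of that type was 1224 CPM against 4350.2 CPM on day 0. Macrophages and dendritic cells are not told apart in that type, and the part of either was not tested. Ccl4, which draws monocytes and T cells, was at 92.3, 2689 and 316 CPM in T cells. In the same cells 6 neutrophil markers summed to 36.2, 4453 and 436 CPM, 4 mast cell markers to 101, 582 and 120.4 CPM and 5 T cell markers to 1993, 2303 and 2979.6 CPM, and Il1b was at 0, 684 and 221 CPM. Their part in the Ccl4 levels was not tested.

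The genes whose levels were most like those of each member were sought over 60 cluster and day units of at least 50 cells, by Pearson correlation of log2(CPM + 10) among 8683 genes. Units of 1 cluster and of 1 library are not independent, so the values are descriptions. Ccl21a was most like Mmrn1, Lyve1 and Reln (0.97, 0.96 and 0.96), which lymphatic endothelium is known to express. Cxcl14 was most like Bnc2, Pdzrn3 and Sdk2 (0.89, 0.89 and 0.87), Cxcl12 like Fbln2, Fam198b and Plpp3 (0.88, 0.88 and 0.88) and Ccl7 like Gpx3, Apod and Htra3 (0.88, 0.87 and 0.82). Ccl11 was most like Pcolce2, Medag and Has1 (0.89, 0.87 and 0.86), and Ccl2 like Cxcl1, St3gal1 and Cd40 (0.77, 0.76 and 0.73). Cxcl9 was most like Vcam1, Tacr1 and Ehd3 (0.83, 0.82 and 0.81), Cxcl10 like Csrnp1, Nrros and Nr4a2 (0.82, 0.82 and 0.81), and Cxcl16 like H2-Ab1, Ctsh and Pf4 (0.76, 0.73 and 0.71). The values for Ccl20 were lower, with Ppa1, Slc25a10 and Kcnk1 (0.58, 0.54 and 0.51).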

How the data were processed

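The authors deposited 1 matrix of raw UMI counts, genes by cells, and a cell table with day, cluster, cell type and a size factor. In the deposited table the size factor is a ratio, each cell's total UMIs over 1 common value, and it entered no result. Cell Ranger 3.0.2 and mm10 are named in the submitters' processing notes. The filter on cells and the method of cell typing are not given in the sources used here. Per the labels' protocols, libraries were made with 10x 3' chemistry.

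UMIs were summed over the cells of a type and library in Python 3.11.15 with numpy 2.4.6, scipy 1.17.1 and pandas 2.3.3, and divided by that sum's total to give CPM. Days were compared as log2 ratios with 10 CPM added, among pairs of at least 10 CPM in either library and 50 cells in both, and called past 2-fold. With 1 pooled library a day, no p-value is given. The scripts were tested on simulated data. Coordinates are from GENCODE M21 (GRCm38). Named genes were the members, fixed lists of receptors, other chemokines (named from 100 CPM) and inducers, and the 3 genes most like each member. One gene of the fixed receptor list is not reported here. The members and lists were chosen with earlier results of these data known. No cell was removed as a doublet. The threshold that Scrublet (scanpy 1.11.5) set by itself marked 420, 0 and 267 cells, so it did not work on day 7, and leaving out the top 5% by its score was an alternative. The other alternatives were a filter on cells, other totals and scalings, averaging CPM over cells, adding 1 CPM in place of 10, no filter on low values, thinning to 1000 UMIs, leaving out the 10 richest cells and equal cluster weight. Leaving out epithelial cells with 5 or more fibroblast or lymphatic marker UMIs was added after seeing the data.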

Additional observations from a re-analysis of the deposited data

Results flagged for a closer look

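Under the same pair of days, 14 pairs of cell types had a member past 2-fold higher in one type and past 2-fold lower in the other; these differences were not tested, and each rests on 1 library per day. The difference of the log2 ratios is given for each. For Cxcl14, fibroblasts were higher on day 42 than on day 0 while keratinocytes were lower (4.49), and the same held against day 7 (2.73). With the same weight for each keratinocyte cluster, the keratinocyte side was not past 2-fold, and against day 7 its sign turned. Fibroblasts against lymphatics gave 5.07 and 4.92 for the same days, where lymphatics had 0 UMIs on day 42 and 15 and 79 on the earlier days. Endothelial Cxcl14, with 20 UMIs on day 42, differed from keratinocytes by 4.20 (day 0) and 3.25 (day 7) and from lymphatics by 4.77 and 5.45. These 4 do not hold without the top 5% of cells by doublet score, where the endothelial log2 ratios were -0.57 to day 0 and -0.28 to day 7. For Cxcl10, endothelial cells against fibroblasts differed by 3.21 (day 42 against day 0) and neutrophils against fibroblasts by 2.79 (day 42 against day 7), the fibroblast level of day 42 resting on 8 UMIs. Most of the 83 endothelial UMIs of day 42 were in 1 cell. Without the 10 richest cells the neutrophil ratio turned negative, so that pair was no longer opposite. For Ccl7 between days 7 and 0, fibroblasts and lymphatics differed from macrophages by 2.68 and 4.64, with 1 and 5 UMIs in macrophages, where the macrophage marker sum was 1224 and 4350.2 CPM and its part was not tested. For Ccl21a between days 7 and 0, colonocytes differed from T cells by 3.03, with 0 and 7 UMIs in T cells. For Ccl20 between days 42 and 7, T cells differed from colonocytes by 3.15, with 3 and 0 UMIs in T cells.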

How the results depend on the processing

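The counts of pairs past 2-fold moved by more than 1.5 times under some settings. Without the 10 cells richest in a gene, pairs higher on day 7 than on day 0 went from 11 to 5 and lower ones from 5 to 3, pairs higher on day 42 than on day 0 from 6 to 1, and pairs of day 42 against day 7 from 5 to 1 higher and from 12 to 7 lower. That setting left 17, 13 and 15 pairs to compare. Higher pairs of day 42 against day 7 were 3 when the top 5% by doublet score were left out, 3 with median-of-ratios size factors and 10 with a pseudocount of 1 CPM. Lower pairs of day 7 against day 0 were 2 with those size factors, and lower pairs of day 42 against day 0 were 9 with the pseudocount of 1 CPM and 8 when mitochondrial and ribosomal protein genes were taken out of the totals. The cause was not tested. Single values changed sign without the 10 richest cells for Ccl20 in colonocytes, day 7 against day 0 (-0.20), Cxcl12 in lymphatics, day 7 against day 0 (0.35), and Cxcl10 in neutrophils, day 42 against day 7 (-0.67). Without the top doublet scores they did so for endothelial Cxcl14, day 42 against days 0 and 7 (-0.57 and -0.28), and fibroblast Cxcl9, day 42 against days 0 and 7 (-0.32 and -0.72). With equal cluster weight, keratinocyte Cxcl14 of day 42 against day 7 changed to 0.16. The main source of a member on a day was the same in 26 of 30 cases without the 10 richest cells (the highest type by CPM in 19 of 30) and in 30 of 30 without the top doublet scores. Leaving out epithelial cells with fibroblast or lymphatic marker UMIs, chosen after seeing the data, kept 41 of 44 calls past 2-fold. No paired analysis was possible because each day has 1 library.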

Other observations

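Il1b, a cytokine that drives NF-kappaB signalling, was at 4198 CPM in macrophages and antigen-presenting cells on day 0 and 12398 CPM on day 7, when that type's macrophage marker sum was 1224 CPM against 4350.2 CPM on day 0 (its part was not tested), and at 11232 CPM in neutrophils on day 7 and 15778 CPM on day 42. Irf1, an interferon-induced transcription factor, was at 474, 173 and 167 CPM in endothelial cells on the 3 days. It was lower on the days when the summed endothelial levels of Cxcl9 and Cxcl10 were higher, which on day 42 rested on few cells. Adam10, a protease that sheds Cxcl16 from the membrane, was at 50.4, 61.9 and 79.4 CPM in keratinocytes.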
